A study of Mus musculus with 10 samples.

Results

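The genes described here encode the translation initiation factors of the mouse, measured as RNA in the whole hippocampus after ablation of the meningeal lymphatic vessels. They are the protein-coding genes of the count table whose symbol is Eif followed by a digit from 1 to 6 and further letters or digits, which gives 54 genes of 27343 in the table, 18197 of them protein-coding. GENCODE M21 lists 55 protein-coding genes with such a symbol, and the remaining gene, Eif4ebp3, was not analysed here. All 54 passed the filter on low counts and were tested together with 15938 genes in all. The symbol rule takes in genes that act beside initiation or outside it: the kinases of eIF2alpha, the eIF4E-binding repressors, the eIF2B exchange factor, eIF5A and the exon junction helicase Eif4a3.

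The 10 libraries came from wild-type male C57BL/6J mice of 2 months. In the Visudyne group (libraries 1 to 5) the photosensitizer verteporfin was injected into the cisterna magna and converted with red light of 689 nm through the skull, a step meant to destroy the lymphatic vessels of the meninges. In the vehicle group (libraries 6 to 10) the carrier was injected in its place, and the series describes the light step for these mice as well. The procedure was done again after 2 weeks, the mice swam the Morris water maze (MWM, a test of spatial learning) 2 weeks later, and the hippocampus was taken 3 days after that. The titles of both groups carry the maze, although the treatment label of the vehicle libraries does not. Ablation is by light and not by a gene, so no targeted transcript can check the labels, and the degree of vessel loss in each mouse was not analysed here. The labels do not number the animals, so the p-values measure the spread between these samples.

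Initiation brings a ribosome to the start codon of a messenger RNA. The small subunit, with eIF1, eIF1A, eIF3 and eIF5 bound to it, binds the initiator tRNA through eIF2 with GTP. It is recruited to the cap by eIF4E, eIF4G and the helicase eIF4A, and scans to the start codon, where eIF5B joins the large subunit. In neurons initiation is a known control point of lasting synaptic change. Phosphorylation of eIF2alpha lowers general initiation by blocking eIF2B, and the 4E-binding proteins, which mTORC1 switches off, hold eIF4E away from eIF4G.

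Total counts were 24752362 to 41073906 per library, with 34548474 to 36956138 in the Visudyne group. The libraries differed in how log2 CPM (a gene's count relative to its library's TMM-scaled total) followed the GC content of genes. The slope per 10 percentage points of GC, over all tested genes and relative to the mean library, lay between -0.54 and 0.0079 in the Visudyne libraries and between -0.020 and 0.41 in the vehicle libraries. Markers of hippocampal subfields were present in every library, with a summed level of 439 to 631 CPM in the Visudyne and 427 to 537 CPM in the vehicle libraries. The 8 choroid plexus markers, none of them at 0, summed to 935 CPM in Visudyne 5 and 1486 CPM in Visudyne 3, against 190 to 226 CPM in the other Visudyne and 185 to 242 CPM in the vehicle libraries. The 4 markers of meningeal fibroblasts, all above 0, summed to 52.6 to 83.9 CPM with Visudyne and 33.6 to 54.3 CPM with vehicle. The 6 microglia markers, also all above 0, summed to 189 to 226 CPM and 166 to 193 CPM in the same order. The 5 neuron markers summed to 2768 to 3229 CPM with Visudyne and 2473 to 2835 CPM with vehicle, and the 5 astrocyte markers to 887 to 1048 CPM and 836 to 956 CPM, with none at 0 in either list. The 7 oligodendrocyte markers, 6 of them above 0 in every library, summed to 2173 to 2596 CPM with Visudyne and 2249 to 3030 CPM with vehicle. In the same order, 4 endothelial markers summed to 43.2 to 50.3 CPM and 41.7 to 50.2 CPM, and 2 thalamus markers to 6.1 to 9.6 CPM and 7.2 to 11.4 CPM.

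After Visudyne, transcripts of 13 initiation factor genes were lower and those of 5 were higher, by small amounts. The lower genes were Eif3d, Eif3f, Eif3g, Eif3h, Eif3i, Eif3k and Eif3l of the eIF3 complex, the helicases Eif4a1 and Eif4a3, the scaffold Eif4g1, the eIF2B subunit Eif2b5, Eif1ad and Eif6, at 0.572 to 0.877 times the vehicle level. The higher genes were Eif1ax, Eif5, Eif2s2, Eif3j2 and Eif5b, at 1.17 to 1.28 times the vehicle level. Under each scaling tried (TMM, RLE, upper quartile or total counts) these 18 genes had the same sign. By edgeR's quasi-likelihood test with Benjamini-Hochberg adjustment over all tested genes, the lower genes were 24.1% of the 54, beside 11.5% of all tested genes. A gene named as called, without another tool, was called by this test. The higher genes were 9.26% of the 54, beside 8.98% of all tested genes, which is the background share. The groups did not overlap for 10 of the 13 lower genes and for 1 of the 5 higher ones. These genes were picked by the test on the same values, and the share of all tested genes without overlap is not given here. The median log2 fold change of the 54 was -0.05, beside 0.01 over all tested genes.

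The sign of the change followed base composition. GC content was taken over all annotated transcripts of a gene. It was 40.1% to 43.3% in the 5 higher genes and 48.8% to 56.9% in the 13 lower genes. Across the 54 genes the log2 fold change and GC content had a Pearson correlation of -0.77 and a Spearman correlation of -0.79, as a description of genes that share their libraries. Over all tested genes with a known GC content Pearson's r was -0.60, so the trend was not limited to initiation factors. No gene of the 54 lies between 46.3% and 48.8% GC, and a split in that gap, made after the values were seen, left 21 GC-poor and 33 GC-rich genes. Of the GC-poor genes 20 had a positive log2 fold change, and of the GC-rich genes 30 had a negative one.

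**Figure D1:**
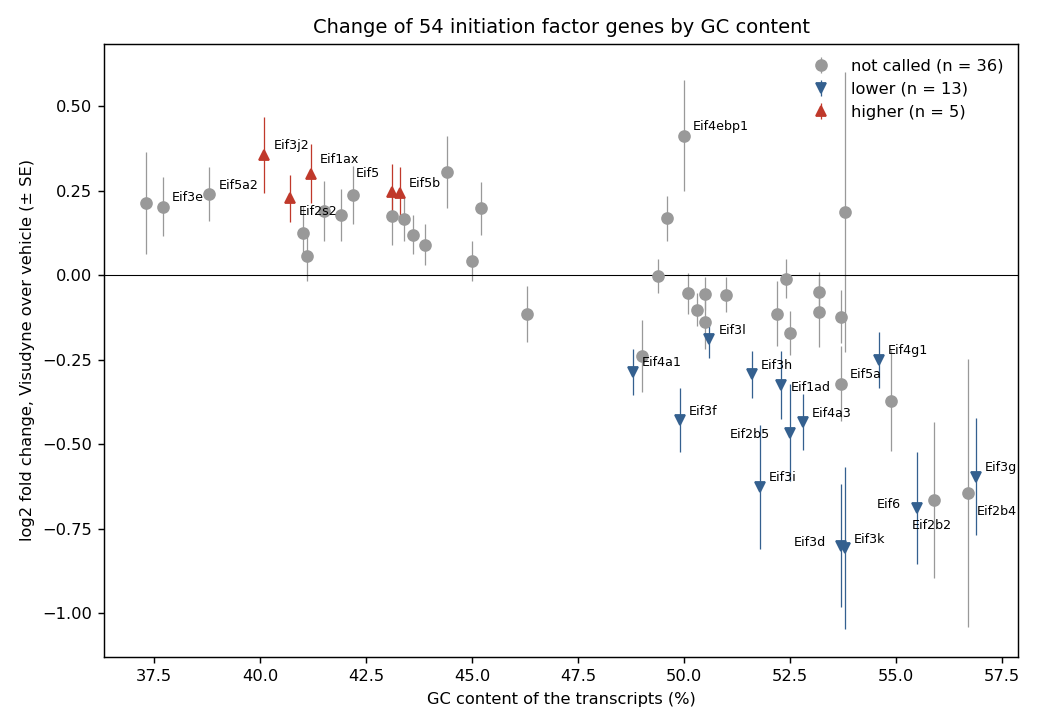
The horizontal axis is the GC content of each gene's annotated transcripts in percent. The vertical axis is the log2 fold change of Visudyne over vehicle with its standard error, 1 point per gene for 54 genes. Symbols give the edgeR call, and the called genes and some others are named. The 5 genes called higher lie between 40.1% and 43.3% GC and the 13 called lower between 48.8% and 56.9%.

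Stretches of the coding sequence show this contrast. The 4 below are the middle 40 codons (120 bases) of the 2 lower and 2 higher genes with the largest change, leaving out Eif3j2, from GENCODE M21 transcripts on GRCm38, with every G or C in the third position of a codon in capitals. Most amino acids allow more than 1 base in the third position, which leaves it the freest to vary between genes.
Eif3k: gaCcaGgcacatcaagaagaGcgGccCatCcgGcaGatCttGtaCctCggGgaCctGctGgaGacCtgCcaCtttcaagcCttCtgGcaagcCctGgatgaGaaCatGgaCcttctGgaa
Eif3d: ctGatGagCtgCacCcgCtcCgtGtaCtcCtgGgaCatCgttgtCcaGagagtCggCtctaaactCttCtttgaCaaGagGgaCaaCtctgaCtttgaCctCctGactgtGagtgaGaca
Eif1ax: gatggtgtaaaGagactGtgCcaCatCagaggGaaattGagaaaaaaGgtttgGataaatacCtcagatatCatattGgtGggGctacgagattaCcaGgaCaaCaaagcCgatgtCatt
Eif5: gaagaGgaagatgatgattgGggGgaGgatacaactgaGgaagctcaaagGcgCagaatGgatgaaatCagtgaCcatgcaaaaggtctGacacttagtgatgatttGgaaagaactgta
Of these 40 codons, 30 end in G or C in Eif3k (codons 90 to 129 of 218) and 30 in Eif3d (codons 255 to 294 of 548), against 20 in Eif1ax (codons 53 to 92 of 144) and 12 in Eif5 (codons 195 to 234 of 429). Over the whole coding sequence the shares of codons that end in G or C are 76.6% in Eif3k, 71.7% in Eif3d, 38.9% in Eif1ax and 40.1% in Eif5. Eif3k lies at chr7:28971372-28981864 on the minus strand, Eif3d at chr15:77958998-77970813 on the minus strand, Eif1ax at chrX:159372178-159389928 on the plus strand and Eif5 at chr12:111538016-111546752 on the plus strand.

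The 54 genes differed far more in their levels than between the groups. Levels are compared between genes as CPM per kilobase of merged exons. In vehicle libraries Eif4a2, the eIF4A helicase that predominates in brain, was highest at 143.0 ± 14.3 CPM per kb (SD, n = 5). Eif1ax followed at 53.6 ± 5.41 CPM per kb and Eif4g2, an eIF4G relative that does not bind eIF4E, at 53.3 ± 3.14 CPM per kb, and these neighbours differed by less than their spread. Eif4a1, Eif5, Eif2s3x and Eif1b came next, from 44.9 ± 2.59 down to 39.6 ± 3.01 CPM per kb, with each neighbour within the spread of the one before it. Eif4e1b, a germline relative of eIF4E, was lowest at 0.132 ± 0.0762 CPM per kb, below Eif2b4 at 0.980 ± 0.328 CPM per kb. Summed over the 54 genes, initiation factors made up 4180 to 4782 CPM in the Visudyne and 3812 to 4337 CPM in the vehicle libraries, and these ranges overlapped.

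**Figure D2:**
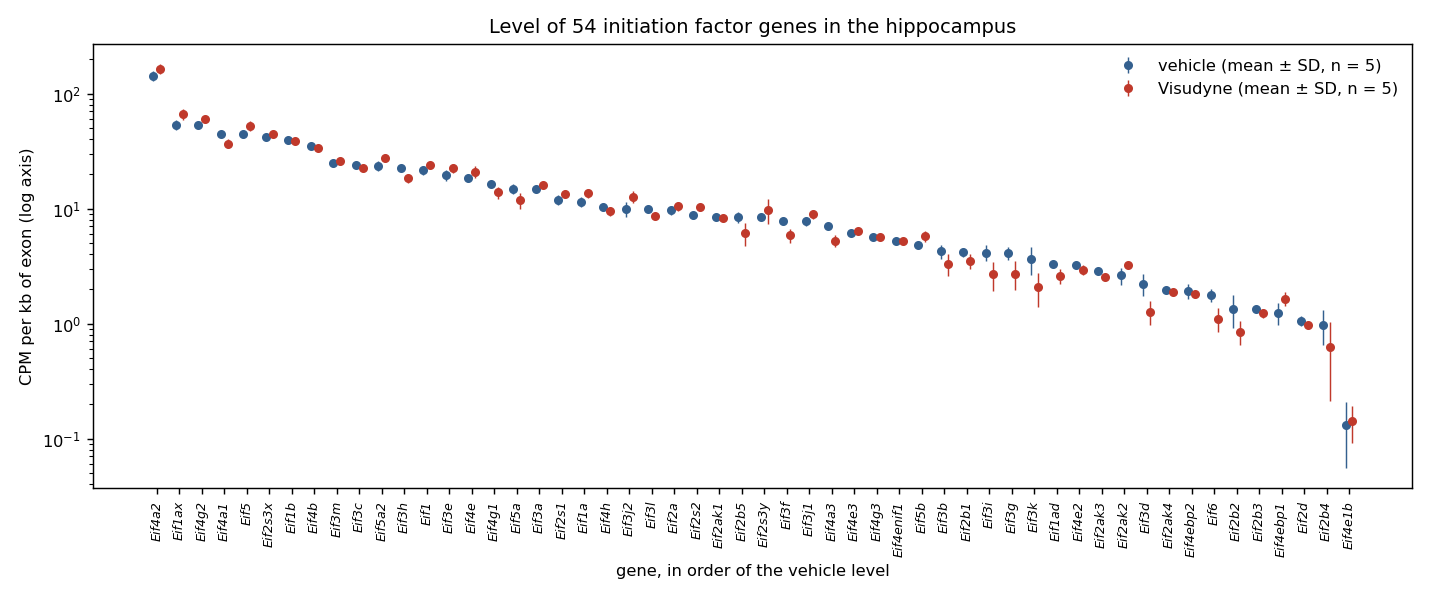
The vertical axis is CPM per kilobase of merged exons on a log axis and the horizontal axis lists the 54 genes in order of the vehicle level, with the mean and SD of 5 libraries for each group. Eif4a2 stands highest and Eif4e1b lowest in both groups, and the distance between the groups is small beside the range over genes.

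Among the factors that select the start codon, 2 of 6 genes were called higher and 1 lower. Eif1ax, the X-linked gene of eIF1A, which holds the small subunit open for scanning, was measured at 395, 327, 376, 332 and 309 CPM in Visudyne 1 to 5 and at 275, 296, 309, 236 and 294 CPM in vehicle 6 to 10. Visudyne 5 fell within the vehicle range, and the other Visudyne libraries lay above it. The log2 fold change was 0.30 (SE 0.088, edgeR quasi-likelihood, adjusted p = 0.0365). Eif5, which makes eIF2 hydrolyse its GTP at the start codon, was measured at 409, 348, 386, 332 and 323 CPM with Visudyne and at 311, 319, 298, 263 and 323 CPM with vehicle. Visudyne 5 and vehicle 10 met at the edge of the groups, and the log2 fold change was 0.25 (SE 0.081, edgeR adjusted p = 0.0483). Eif1ad, a nuclear protein related to eIF1A, stood at 6.06, 6.72, 6.83, 8.25 and 8.53 CPM with Visudyne and at 9.59, 9.47, 8.88, 9.01 and 8.70 CPM with vehicle. The groups did not overlap, and the log2 fold change was -0.33 (SE 0.10, edgeR adjusted p = 0.0417).

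The other genes of that role, Eif1, Eif1a and Eif1b, had log2 fold changes of 0.17, 0.24 and -0.05 and were not called. Eif1a was the only uncalled gene of the 54 whose groups did not overlap, with 51.4 to 63.0 CPM in the Visudyne and 39.1 to 51.2 CPM in the vehicle libraries. It was called by DESeq2.

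For eIF2, which carries the initiator tRNA, 1 of 6 genes of the tRNA carriers was called. Eif2s2, the beta subunit, was measured at 76.4, 68.6, 71.6, 63.9 and 64.7 CPM with Visudyne and at 62.0, 59.3, 57.9, 51.9 and 63.8 CPM with vehicle. Every Visudyne library lay above every vehicle library, by a narrow margin between Visudyne 4 and vehicle 10. The log2 fold change was 0.23 (SE 0.070, edgeR adjusted p = 0.0417). Eif2s1, the alpha subunit on which the stress signal is written, had a log2 fold change of 0.18 and was not called. Eif2s3x, the X-linked gamma subunit and the highest of the carriers per kb, ranged from 162 to 181 CPM with Visudyne and from 142 to 168 CPM with vehicle, so the groups overlapped (log2 fold change 0.09).

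Its partner on the Y chromosome, Eif2s3y, had its lowest value in Visudyne 5. It was measured at 49.9, 41.9, 43.7, 43.3 and 23.8 CPM with Visudyne and at 35.2, 35.4, 33.3, 33.0 and 37.7 CPM with vehicle. Visudyne 5 was below all vehicle libraries and the other 4 were above them. Over all libraries Eif2s3y was not called (log2 fold change 0.21, SE 0.15), whereas without Visudyne 5 the log2 fold change was 0.35 and it was called. Its log2 fold change was -0.15 once the GC trend was removed.

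For eIF2B, the complex that recharges eIF2 with GTP, all 5 subunits had a negative log2 fold change and 1 was called, with a median of -0.47. Eif2b5, the catalytic epsilon subunit, was measured at 10.6, 17.9, 13.8, 17.3 and 19.5 CPM with Visudyne and at 23.8, 19.6, 21.4, 24.7 and 19.6 CPM with vehicle. The groups did not overlap, though Visudyne 5 and the lowest vehicle libraries nearly met. The log2 fold change was -0.47 (SE 0.14, edgeR adjusted p = 0.0415). Eif2b2 and Eif2b4, the GC-richest subunits at 55.9% and 56.7%, had log2 fold changes of -0.67 (SE 0.23) and -0.64 (SE 0.40) at levels of 0.671 to 3.89 CPM, and edgeR called neither, while DESeq2 called Eif2b2 lower. Eif2b1 stood at -0.24 and Eif2b3, the GC-poorest subunit at 46.3%, at -0.11.

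The 4 kinases that phosphorylate eIF2alpha respond to different stresses: Eif2ak1 (HRI) to lack of heme, Eif2ak2 (PKR) to double-stranded RNA, Eif2ak3 (PERK) to unfolded protein in the endoplasmic reticulum and Eif2ak4 (GCN2) to lack of amino acids. By edgeR 0 of 4 were called, while 2 had an unadjusted p under 0.05 and both DESeq2 and limma-voom called 1. Eif2ak2, the gene called by those tools, ranged from 15.7 to 18.1 CPM with Visudyne and from 11.4 to 16.9 CPM with vehicle (log2 fold change 0.31, SE 0.11). Only vehicle 10 overlapped the Visudyne range. Eif2ak3 had a log2 fold change of -0.17 (SE 0.065), and Eif2ak1, the highest kinase per kb, and Eif2ak4 each had one of -0.05.

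The eIF3 complex, the largest initiation factor and the platform on which the small subunit is loaded, held 8 of the 18 called genes. Of its 14 genes 7 were lower and 1 was higher, beside 11.5% lower and 8.98% higher over all tested genes. The 7 lower genes were GC-rich, from 49.9% (Eif3f) to 56.9% (Eif3g). Eif3f, a subunit of the core of eIF3, was measured at 13.7, 17.4, 15.8, 17.7 and 19.95 CPM in Visudyne 1 to 5. In vehicle 6 to 10 it stood at 23.8, 23.0, 22.3, 24.4 and 20.2 CPM. All Visudyne libraries were below all vehicle libraries, with Visudyne 5 and vehicle 10 close together. The log2 fold change was -0.43 (SE 0.095, edgeR adjusted p = 0.0246). Eif3d, a subunit that can itself bind the cap of selected messages, was measured at 4.08, 6.02, 6.51, 6.62 and 8.35 CPM with Visudyne and at 12.3, 9.18, 10.2, 14.6 and 8.78 CPM with vehicle. Again the groups did not overlap, with Visudyne 5 highest in its group and vehicle 10 lowest in its own, and the log2 fold change was -0.80 (SE 0.18, edgeR adjusted p = 0.0252). Eif3h, another core subunit, stood at 25.2, 29.9, 29.1, 32.6 and 31.1 CPM with Visudyne and at 37.7, 36.3, 37.0, 36.8 and 33.4 CPM with vehicle. The groups did not overlap (log2 fold change -0.29, SE 0.070, edgeR adjusted p = 0.0266), but 29.4% of the 31-base words of Eif3h occur in other annotated genes, so its count is less certain.

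Eif3k, which with Eif3l forms the outer arm of the complex, had the most negative log2 fold change of the 54 at -0.81 (SE 0.24). It ranged from 3.05 to 7.72 CPM with Visudyne and from 7.76 to 14.2 CPM with vehicle. Visudyne 1 was lowest and vehicle 9 highest, the libraries at the ends of the GC slope. Eif3g and Eif3i, peripheral subunits, had log2 fold changes of -0.60 and -0.63, with Visudyne 5 inside the vehicle range in each. Eif3l had the smallest change among the lower genes, at -0.19.

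Of the remaining subunits only Eif3j2 was called. Eif3a and Eif3c, the large scaffold subunits, had log2 fold changes of 0.12 and -0.10 and were not called, nor was Eif3b at -0.37. Eif3e, GC-poor at 37.7%, had a log2 fold change of 0.20, and Eif3m, the highest eIF3 gene per kb, one of 0.06. Eif3j2 was called higher (log2 fold change 0.36), but 94.9% of its 31-base words are shared, mostly with its near copy Eif3j1, and the estimated counts could be split either way between them. Eif3j1 itself had a log2 fold change of 0.20 and was not called. The subunits of this complex are made in fixed numbers per particle, yet their transcripts ranged from 2.21 CPM per kb (Eif3d) to 25.1 CPM per kb (Eif3m) in the vehicle libraries.

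At the cap, 2 of 11 genes were called, both lower. Eif4a1, the helicase that unwinds the 5′ leader, was measured at 138, 170, 155, 163 and 171 CPM with Visudyne and at 213, 185, 188, 189 and 196 CPM with vehicle. The groups did not overlap and the log2 fold change was -0.29 (SE 0.069, edgeR adjusted p = 0.0266). Small RNA genes lie inside Eif4a1 on its strand and 31.1% of its 31-base words occur elsewhere, mainly in a pseudogene. Eif4g1, the scaffold that joins eIF4E, eIF4A and eIF3, was measured at 82.4, 105, 97.0, 107 and 115 CPM with Visudyne and at 128, 117, 116, 127 and 113 CPM with vehicle. Visudyne 5 overlapped the vehicle libraries, and the log2 fold change was -0.25 (SE 0.082, edgeR adjusted p = 0.0498), just inside the threshold.

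Eif4a2, a close relative of Eif4a1 and the highest gene of the 54, was measured at 968, 896, 930, 821 and 744 CPM with Visudyne and at 734, 800, 823, 642 and 818 CPM with vehicle. The groups overlapped in Visudyne 4 and 5, and Eif4a2 was not called (log2 fold change 0.19, SE 0.089). Eif4e, the cap-binding protein, had a log2 fold change of 0.18 and its relatives Eif4e2 and Eif4e3 had -0.14 and 0.04. The helicase cofactors Eif4b and Eif4h stood at -0.06 and -0.12, and the scaffolds Eif4g2 and Eif4g3 at 0.17 and -0.01. None of these was called by edgeR, while DESeq2 called Eif4g2 higher. Eif4e1b, at 0.126 to 0.551 CPM, was too low to show a difference of this size (log2 fold change 0.19, SE 0.41).

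Eif4a3, a helicase of the same family that sits in the exon junction complex after splicing, had the smallest p of the 54. It was measured at 9.20, 11.7, 11.3, 11.1 and 12.6 CPM in Visudyne 1 to 5 and at 15.4, 14.3, 15.6, 15.8 and 14.3 CPM in vehicle 6 to 10. The highest Visudyne library stayed below the lowest vehicle library by more than 1 CPM. The log2 fold change was -0.43 (SE 0.084, edgeR adjusted p = 0.0223), although 31.2% of its 31-base words occur in other annotated genes.

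The repressors of eIF4E were not called by edgeR (0 of 3, with 1 at an unadjusted p under 0.05, 1 called by DESeq2 and 0 by limma-voom). That gene was Eif4ebp1, the classical 4E-BP, at 4.08, 3.31, 2.91, 3.96 and 3.89 CPM with Visudyne and 2.76, 2.51, 1.99, 3.66 and 2.72 CPM with vehicle. Vehicle 9 alone reached the Visudyne range (log2 fold change 0.41, SE 0.16). Its log2 fold change was above that of every other member, against the trend with GC content (50% GC). Eif4ebp2, the main 4E-BP of neurons, had a log2 fold change of -0.11, and Eif4enif1, the carrier of eIF4E into the nucleus and the highest of these genes per kb, one of -0.002.

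Of the late factors, Eif6, which keeps free large subunits apart from small ones, was lower. It was measured at 1.98, 3.15, 2.59, 3.40 and 3.73 CPM with Visudyne and at 5.45, 4.28, 4.78, 5.32 and 4.10 CPM with vehicle. The groups did not overlap and the log2 fold change was -0.69 (SE 0.17, edgeR adjusted p = 0.0266). Eif5b, the GTPase that joins the subunits, was measured at 64.2, 52.8, 58.7, 57.6 and 47.8 CPM with Visudyne and at 48.2, 48.96, 49.3, 44.9 and 45.7 CPM with vehicle. Visudyne 5 fell among the vehicle libraries, and the log2 fold change was 0.24 (SE 0.075, edgeR adjusted p = 0.0413). Eif5a, the hypusine protein that helps stalled ribosomes, had a log2 fold change of -0.32 and its GC-poor relative Eif5a2, the highest of this role per kb, one of 0.24. Neither was called by edgeR, while DESeq2 called Eif5a lower and Eif5a2 higher.

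**Figure D3:**
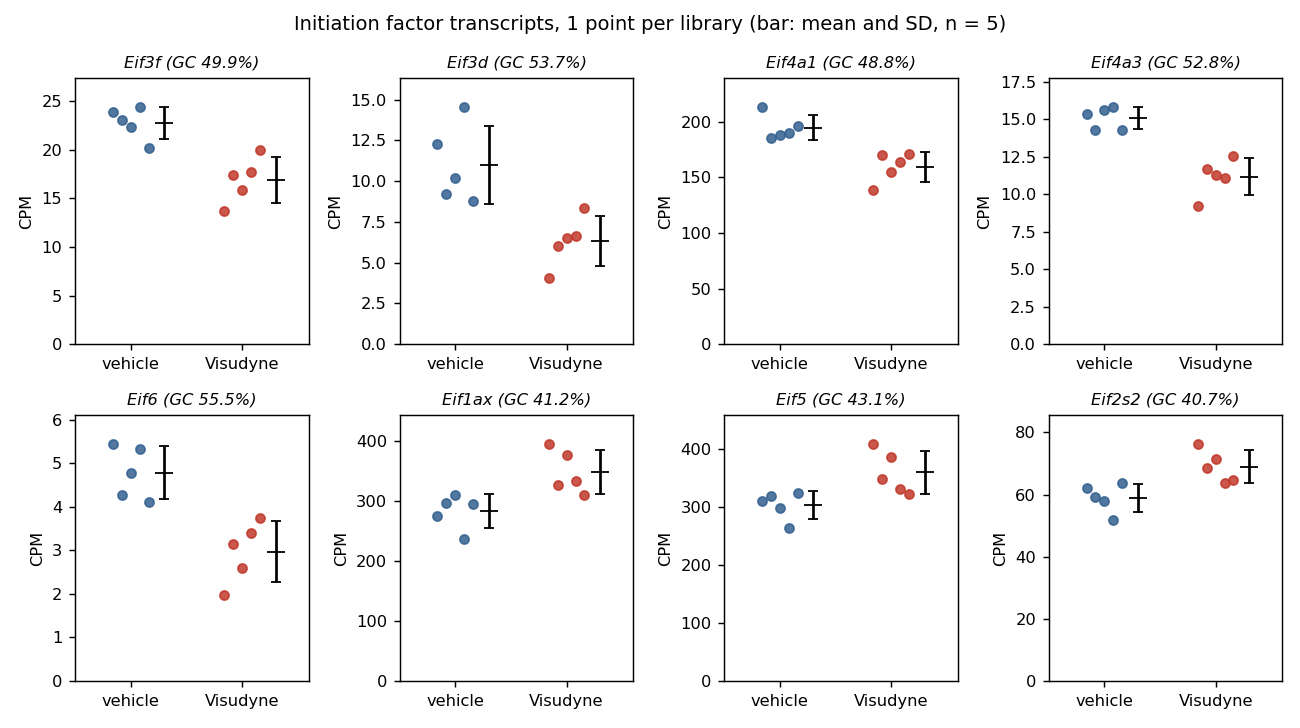
Each panel gives the CPM of 1 gene on a linear axis from 0, with 1 point per library (vehicle 6 to 10 and Visudyne 1 to 5 from left to right) and a bar for the mean and SD of 5. In the panels of Eif3f, Eif3d, Eif4a1, Eif4a3 and Eif6 every Visudyne point lies below every vehicle point, while in those of Eif1ax and Eif5 Visudyne 5 reaches the vehicle libraries.

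How far these calls hold when base composition is taken into account was measured in several ways. When each library's loess trend with GC content was removed, 5 of the 54 genes were called lower (9.26%, beside 2.24% of all tested genes): Eif3d, Eif3f, Eif3m, Eif4a1 and Eif4a3. By the same edgeR fit 0 were called higher (beside 2.23% of all tested genes), with 4 genes positive at an unadjusted p under 0.05. Eif4a1, near the middle of the GC range, kept a log2 fold change of -0.29, and that of Eif3f was -0.38, that of Eif3d -0.56 and that of Eif4a3 -0.25. Eif3m, which is GC-poor, had a log2 fold change of -0.20 in place of 0.06, so its sign turned. All 5 higher genes then stood between -0.04 (Eif2s2) and 0.08 (Eif3j2), and Eif4g1 turned to 0.03.

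Once the GC trend was removed the median log2 fold change was -0.15 for the 14 eIF3 genes, of which 3 were called lower, and -0.30 for the 5 eIF2B genes, of which edgeR called 0 (3 were negative at an unadjusted p under 0.05). With the GC slope as covariate the same medians were -0.05 for eIF3 and 0.06 for eIF2B, so that of eIF2B turned its sign. With the GC trend removed, the median of the 6 genes of start codon selection was 0.05 and that of the 11 cap genes -0.03. After the same removal, the correlation of log2 fold change with GC content over the 54 genes was -0.17 (Pearson).

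**Figure D4:**
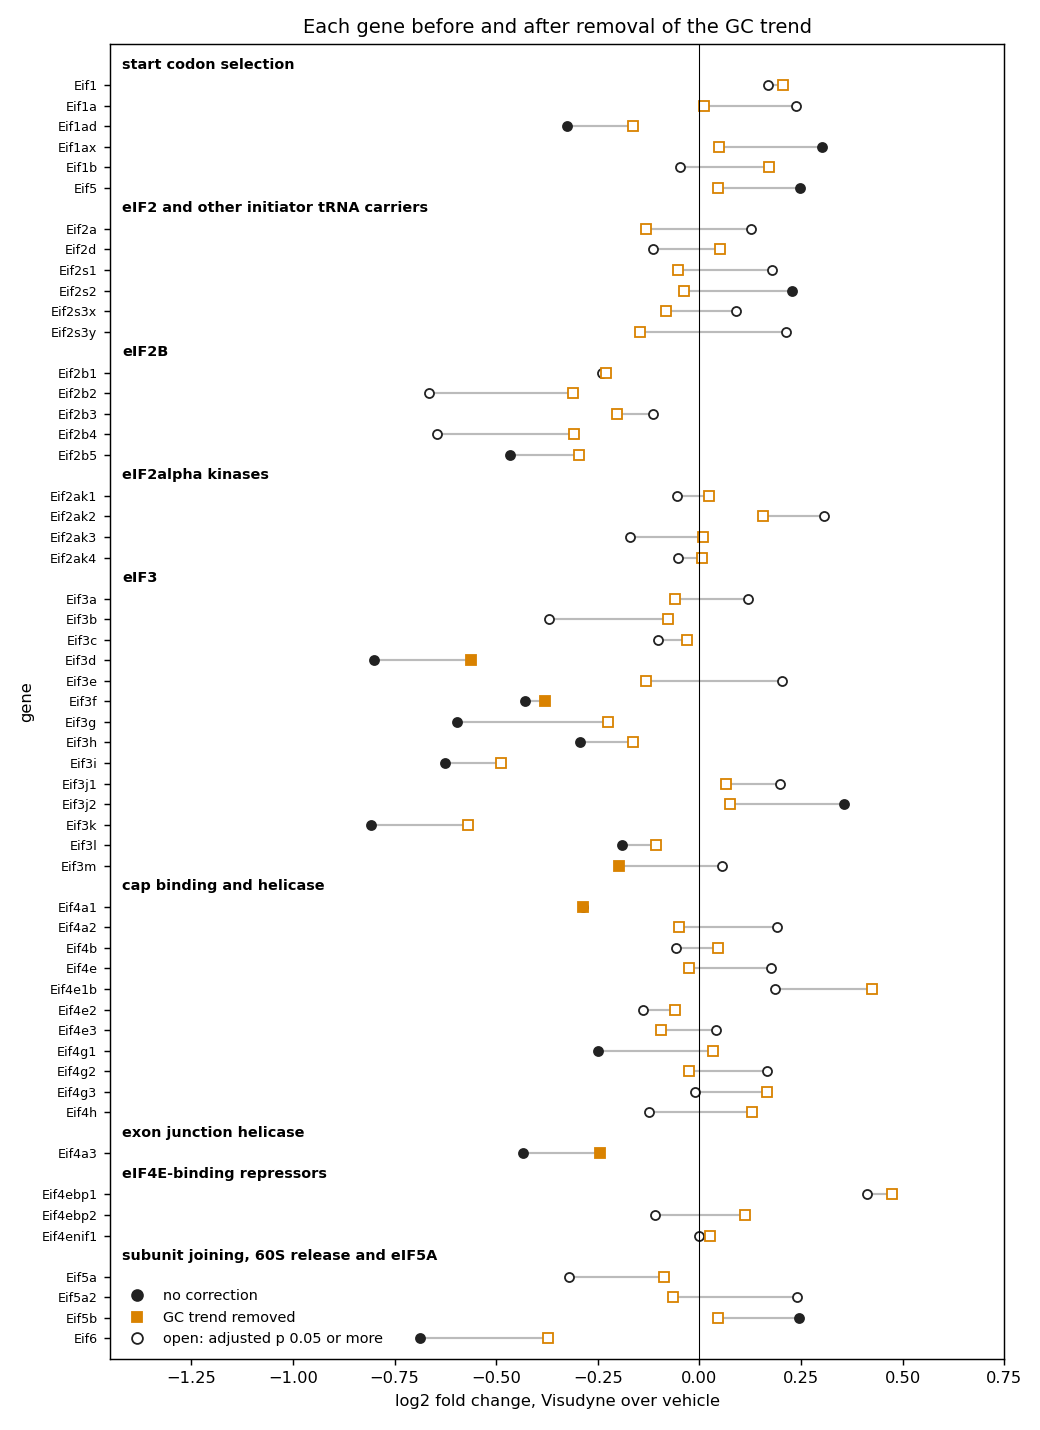
The horizontal axis is the log2 fold change of Visudyne over vehicle for each of the 54 genes, grouped by role, with circles for the values without correction and squares for those with each library's GC trend removed, filled where the edgeR adjusted p is under 0.05. The value lies nearer to 0 after removal for 41 of the 54 genes and crosses 0 for 24, among them Eif2s2, Eif3m and Eif4g1, while Eif4a1 stays at -0.29.

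With each library's GC slope added to the model in place of the removal, edgeR called 0 of the 54 genes and 0 genes of the whole table, with 1 member at an unadjusted p under 0.05. The slope and the group are nearly the same contrast in these libraries: apart from Visudyne 5 and vehicle 10, every Visudyne slope was negative and every vehicle slope positive. Of the genes called without correction, Eif5, Eif2b5, Eif3i, Eif3k and Eif4g1 changed sign in that fit. With 1 surrogate variable 0 of the 54 were called as well, with 9 at an unadjusted p under 0.05. DESeq2 called 10 higher and 15 lower, and limma-voom 6 higher and 13 lower. For these tools the shares of all tested genes called are not given here, so the counts have no background beside them. The part of the group and the part of the GC slope in these differences cannot be told apart.

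Visudyne 5 and vehicle 10 had nearly the same GC slope, 0.0079 and -0.020. Of the 13 lower genes, 10 were lower in Visudyne 5 than in vehicle 10, with a median difference of -0.03 in log2 CPM beside a median log2 fold change of -0.43 between the groups. For the 5 higher genes the median difference of this pair was 0.07, beside 0.25 between the groups. This is 1 library against 1 and has no replicate.

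The calls also rested on single libraries. No gene was called in all 10 fits that each left out 1 library; Eif4a3 was called in 8, Eif3d, Eif3f, Eif3h, Eif4a1 and Eif6 in 7 each, and the higher genes in 1 to 3. Without Visudyne 3, or without vehicle 6, edgeR called 0 of the 54 genes in either direction, with 25 and 26 at an unadjusted p under 0.05, and without vehicle 9 it called 1 lower gene. Without Visudyne 5 it called 9 higher and 19 lower genes. For fits with libraries left out, the shares of all tested genes called are not given here. With the GC trend removed and 1 library left out, the count of lower genes ran from 0 to 9, the highest again without Visudyne 5. Of the genes called lower with that trend removed, Eif4a1 was called in 3 of these 10 fits. Eif3d, Eif3f and Eif3m were called in 2 each and Eif4a3 in 1. In a fit without Visudyne 3 and Visudyne 5, the libraries with the most choroid plexus transcripts, edgeR called 3 genes higher and 13 lower. The higher genes were then Eif1ax, Eif5b and Eif2s3y, so Eif5, Eif2s2 and Eif3j2 were no longer called, while the lower genes were the same 13. Without these libraries and with the GC trend removed it called 0 higher and 2 lower. The summed markers of neurons, astrocytes, microglia and meningeal fibroblasts reached higher levels with Visudyne, and those of oligodendrocytes and thalamus with vehicle. In each of these lists the ranges of the groups overlapped, and the part of cell types in these differences was not tested. In whole tissue, fewer cells of a type and less RNA per cell cannot be told apart.

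**Figure D5:**
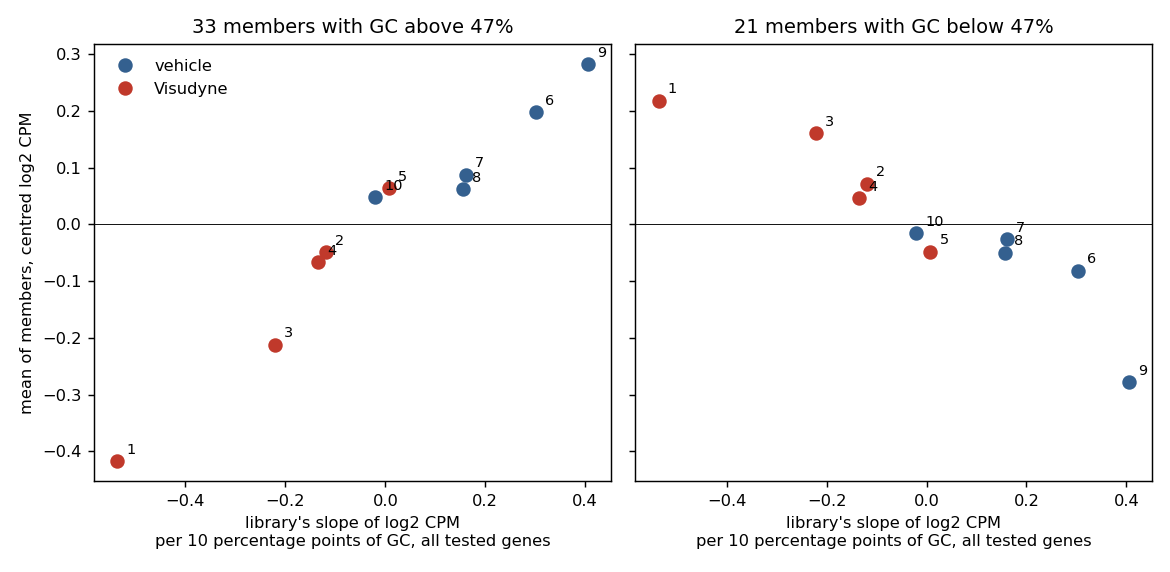
The horizontal axis is each library's slope of log2 CPM per 10 percentage points of GC over all tested genes, and the vertical axis the mean over members of log2 CPM centred on the gene's mean over 10 libraries, for 33 GC-rich (left) and 21 GC-poor (right) genes, with library numbers beside the points. GC-rich members run from -0.42 in Visudyne 1 to 0.28 in vehicle 9 and GC-poor ones from 0.22 to -0.28 in the same libraries, while Visudyne 5 and vehicle 10 lie together near the middle.

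Related genes of the same family were also compared within each library, as the log2 ratio of one to the other, for 9 pairs with an exact two-sided permutation test (smallest possible p 0.00794) and Benjamini-Hochberg adjustment over the 9. The ratio of Eif4a1 to Eif4a2 was -2.81, -2.40, -2.58, -2.33 and -2.13 in Visudyne 1 to 5 and -1.78, -2.11, -2.13, -1.76 and -2.06 in vehicle 6 to 10, a difference of -0.48 (exact permutation p = 0.0159, adjusted p = 0.0286). Visudyne 5 and vehicle 8 met at the edge. Without the GC trend the difference was -0.24 (exact permutation p = 0.0317, adjusted p = 0.214).

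Eif4ebp1 over Eif4ebp2 was 0.52 higher with Visudyne on the log2 scale, from -1.76 to -1.21 against -2.30 to -1.82, without overlap (exact permutation p = 0.00794, adjusted p = 0.0286). With the GC trend removed this difference was 0.36 (exact permutation p = 0.0476, adjusted p = 0.214). Eif1 over Eif1b was 0.22 higher, also without overlap, and 0.04 with the trend removed. Eif5a over Eif5a2, which differ by 14.9 percentage points of GC, differed by -0.57, and by -0.02 with the trend removed. Eif4g1 over Eif4g3 differed by -0.25, and by -0.13 with the trend removed. Each of these had an adjusted exact permutation p of 0.0286 before the correction, and none of the 9 passed after it. The other pairs, Eif1a with Eif1ax, Eif2s3x with Eif2s3y, Eif3j1 with Eif3j2 and Eif4e with Eif4e2, did not pass in either form.

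Genes around initiation were read from lists by function, with the same edgeR calls, beside the shares of 8.98% higher and 11.5% lower over all tested genes. Of 16 tested targets of the integrated stress response, the program that ATF4 runs when eIF2alpha is phosphorylated, 4 were lower and 1 was higher, with a median log2 fold change of -0.26. The lower ones included the serine synthesis genes Psat1 (-0.29) and Phgdh (-0.84) and the eIF2alpha phosphatase subunit Ppp1r15a (-0.91), and the higher one was Cebpg (0.28). Of these, Psat1 and Phgdh were called after removal of the GC trend too. Ppp1r15a was at a low level, with a mean of 1.02 CPM with Visudyne and 1.93 CPM with vehicle. Of 17 genes of the mTORC1 pathway and its outputs, 5 were lower and 2 higher (median -0.23), among them Rps6 (-0.29), Mlst8 (-0.59) and Akt1s1 (-0.84) lower and the S6 kinase gene Rps6kb1 (0.30) higher. Akt1s1 was also low, with a mean of 1.09 CPM with Visudyne and 1.95 CPM with vehicle. After removal of the GC trend edgeR called 0 of the 17, with 2 at an unadjusted p under 0.05.

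Of 15 other initiation, cap and poly(A) factors, 3 were higher and 1 lower (median 0.07). The higher genes were Pabpc1 (0.30), which binds the poly(A) tail, the helicase Ddx3x (0.34) and Mcts1 (0.29), and the lower one was Rack1 (-0.48), a protein of the small subunit, which was also called with the GC trend removed. A list of elongation and termination factors and some other translation genes, Abcf1 among them, had the most negative median of these lists, -0.44. Of its 15 genes, 10 were lower and 1 was higher. Eefsec (-1.13), Abcf1 (-0.65), Eef1b2 (-0.46) and Eef1g (-0.59) led by p. Eefsec was at a low level, with a mean of 0.75 CPM with Visudyne and 1.64 CPM with vehicle. With the GC trend removed edgeR called 5 genes of the list lower (median of the list -0.22). Abcf1, Eef1b2 and Eef1g were among them, and Eefsec was not. The median GC content of the list was 53.2%. Of 9 mitochondrial translation factors 1 was called, Tufm, lower by edgeR at -0.89 without correction and at -0.58 with the GC trend removed; a single call in 9 genes is near the background share of 11.5%.

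Promoter letters were read for the members that RefSeq places on GRCm38.p6, 43 of the 54, in windows from 250 bases before to 50 after each start, on both strands. The ETS motif CCGGAAG stood in 16 of these 43 genes (37.2%), beside 18.2% of the 10861 tested protein-coding genes with a window. The E-box CACGTG, which MYC and USF factors bind, stood in 10 (23.3%), beside 11.2%. The YY1 word AAGATGGC was found in 5 (11.6%, beside 4.86%), the ATF4 response word TGATGNAA in 1 (2.33%, beside 2.89%) and the CRE word TGACGTCA in 0 (beside 3.42%). No word searched contains another. A start with the pyrimidine run of TOP messages, whose translation mTORC1 controls, was found in 2 genes, Eif2s3x and Eif3f (4.65%, beside 2.98%). Promoters of eIF3 genes are shown because that complex held most of the lower genes: the 100 bases before the start, 5′ to 3′ on the gene's strand, with the ETS or E-box letters in capitals.
Eif3d: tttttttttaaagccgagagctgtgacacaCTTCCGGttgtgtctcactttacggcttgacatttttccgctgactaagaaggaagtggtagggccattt
Eif3g: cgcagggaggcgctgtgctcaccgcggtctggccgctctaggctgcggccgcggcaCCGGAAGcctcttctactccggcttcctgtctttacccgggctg
Eif3l: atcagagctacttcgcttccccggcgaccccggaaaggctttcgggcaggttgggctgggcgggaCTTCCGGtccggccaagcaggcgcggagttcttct
Eif3c: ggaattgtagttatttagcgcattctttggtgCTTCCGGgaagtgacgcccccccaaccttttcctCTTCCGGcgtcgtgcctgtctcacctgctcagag
Eif3f: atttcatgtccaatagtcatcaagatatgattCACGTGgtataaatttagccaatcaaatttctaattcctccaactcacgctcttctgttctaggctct
Eif3k: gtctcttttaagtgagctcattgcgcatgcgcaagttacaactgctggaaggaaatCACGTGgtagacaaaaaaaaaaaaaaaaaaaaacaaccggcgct
These lie at chr15:77970825-77970924 (minus strand, Eif3d), chr9:20898591-20898690 (minus, Eif3g), chr15:79075123-79075222 (plus, Eif3l), chr7:126566367-126566466 (minus, Eif3c), chr7:108934315-108934414 (plus, Eif3f) and chr7:28981889-28981988 (minus, Eif3k). Eif3d, Eif3g and Eif3l, which were lower, share the ETS letters with Eif3c, which was not called and holds them at both marked places. Eif3f and Eif3k, which were lower, hold the E-box letters. So does the window of Eif3a, and that of Eif3m holds the ETS letters, and neither gene was called without correction. Eif3h and Eif3i, the other lower eIF3 genes, had no window and were not read. Among the eIF3 genes with a window, the letters therefore do not separate the lower ones from the others.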

How the data were processed

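Hippocampal total RNA was made into stranded libraries (Illumina TruSeq), per the labels. Estimated counts per gene were deposited by the authors as 1 table of whole numbers. FastQC, Salmon and mm10 are named per the submitters' processing notes; no source used here gives the annotation, how transcripts were summed or the use of strand. Symbols, exon lengths and GC content came from GENCODE M21, which holds 27053 of the 27343 gene IDs, and promoters from RefSeq.

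Genes were tested with edgeR 4.0.16 (R 4.3.3): filterByExpr, TMM factors, quasi-likelihood test, Benjamini-Hochberg adjustment over 15938 genes, threshold 0.05, both groups of 5 and no covariates. The test was tried on simulated counts that held no GC trend. That trial therefore cannot show how the test behaves under such a trend. CPM values are scaled by TMM. The GC trend was removed per library by loess (span 0.3) on log2 CPM (prior count 2). Alternatives used DESeq2 1.42.0, limma 3.58.1 and sva 3.50.0, other scalings and filters, and each library left out.

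The members and lists were chosen with earlier results of these data known. Members are named by role, with every library's values for the called genes of smallest p (up to 3 per role) and values or ranges for the gene highest per kb; Eif3k, Eif2s3y, Eif4ebp1 and Eif1a were described further after their values were seen. From each pathway list up to 4 genes of smallest p are named. Protein sequences were not used here.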

Additional observations from a re-analysis of the deposited data

Results flagged for a closer look

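In each group of 5 libraries, the gap from the highest or lowest library to its neighbour was set against the group's range for all 54 genes. Of 108 such groups 8 had a library apart by Dixon's criterion, and chance flags about 1 in 20 groups. Vehicle 9, the library with the steepest positive GC slope, was lowest in its group for Eif1a (39.1 CPM, next 49.3), Eif2s3x (142 CPM, next 161) and Eif3e (106 CPM, next 135.0), which are GC-poor. It was highest for Eif3g (10.1 CPM, next 8.16), the GC-richest member. Visudyne 1, the library with the steepest negative slope, was highest for Eif2a (74.5 CPM, next 63.7) and lowest for Eif4e2 (18.2 CPM, next 22.2) and Eif4e1b (0.126 CPM, next 0.339). Visudyne 5 was highest for Eif2ak3 (16.7 CPM, next 15.2).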

How the results depend on the processing

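The counts of genes called higher and lower were 5 and 13. The settings for GC content, 1 surrogate variable, total counts alone and the absence of some single libraries moved them by more than 1.5 times. The count of higher genes also moved without a filter on low counts and with DESeq2. RLE factors gave 4 higher and 12 lower genes, and upper-quartile factors 6 higher and 13 lower. Higher genes were 0 with total counts alone, without a filter on low counts, with 1 surrogate variable, with the GC slope as covariate, with the GC trend removed, with GC and length trends removed, and with the GC trend removed without Visudyne 3 and Visudyne 5. They were 10 by DESeq2, 3 without Visudyne 3 and Visudyne 5, and 0 to 9 with each library left out. Lower genes were 24 with total counts alone, which moved the median log2 fold change of all tested genes to -0.19. They were 0 with 1 surrogate variable or the GC slope as covariate, 5 with the GC trend or GC and length trends removed, 2 with the GC trend removed without Visudyne 3 and Visudyne 5, and 0 to 19 with each library left out. With the GC trend removed, leaving out each library gave 0 to 9 lower and 0 to 1 higher genes, and leaving out Visudyne 3 and Visudyne 5 gave 2 lower. These last GC-removed fits without libraries, and those without Visudyne 3 and Visudyne 5, were chosen after seeing the data. The cause of these shifts was not tested. Outside the main fit, the fit with the GC trend removed and the fit with the GC slope as covariate, the calls among all tested genes are not given here. A shift in the members cannot be told from one over the whole table there. The median log2 fold change of the 54 was -0.256 with total counts and 0.00129 with the GC slope as covariate.

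Reversals are listed only for genes called without correction or in the setting named. Over all 54 genes, 24 signs turned with the GC trend removed. Reversed log2 fold changes were -0.00491 (Eif5), 0.0585 (Eif2b5), 0.0589 (Eif3i), 0.117 (Eif3k) and 0.0318 (Eif4g1) with the GC slope as covariate. With the GC trend removed they were -0.0371 (Eif2s2), -0.197 (Eif3m) and 0.0328 (Eif4g1); with GC and length trends removed -0.0418, -0.185 and 0.0263 in that order; without Visudyne 3 and Visudyne 5 and with the GC trend removed -0.0615 (Eif2s2) and 0.0391 (Eif4g1). Eif3m had -0.152 with total counts. No paired analysis was possible because the replicate numbers 1 to 5 and 6 to 10 are not shared between the groups. Depth limits Eif4e1b, at under 1 CPM in every library.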

Other observations

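Eif2s3y was lower in Visudyne 5 (23.8 CPM) than in every other library, whereas other Y-linked genes were not lowest there: Ddx3y was at 112 CPM in Visudyne 5 and at 88.2 to 125 CPM in the vehicle libraries, Uty at 66.9 CPM and 54.5 to 65.6 CPM, and Kdm5d at 13.4 CPM and 10.1 to 12.9 CPM. Within the Visudyne group, Visudyne 5 was also lowest for Ddx3y (next 118 CPM) and Uty (next 68.2 CPM). For Kdm5d it was just above Visudyne 3 (13.3 CPM). Among the Y-linked genes read, only Eif2s3y fell below every vehicle library in Visudyne 5.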
